A study of Mus musculus with 8 samples.

Results

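The genes described here are 9 marker genes of monocytes and macrophages: Lyz2, Cd68, Mpeg1, Lgals3, Adgre1, Mrc1, Ms4a6c, Emb and F13a1. They were taken by name, and every probe set whose annotation gave 1 of these symbols and no other was used. This gave 10 probe sets of the 22626 tested, 1 for each gene and a second for Emb, and 9 genes of 12393 measured. The study asked what loss or return of PICALM, an adaptor protein of clathrin-mediated endocytosis, does to gene expression in mouse blood cell progenitors. RNA from 4 cell lines, PICALM6A, PICALM6B, PICALM6D and PICALM84 (called 6A, 6B, 6D and 84 here), was hybridized to 8 Affymetrix arrays, 1 knockout and 1 rescued array for each line. All cells were Picalm-/- (fit1-5R allele, background strain B6(Cg)-TyrC-2J/J) fetal liver cells of embryonic day 14, immortalized by a retrovirus that carries the fusion oncogene MLL-ENL with eGFP, and grown in interleukin-3 at 5 ng/ml and stem cell factor at 50 ng/ml. Knockout cells carried the empty retroviral vector MSCVneo, and rescued cells carried PICALM in its place. Each line is an immortalized culture with no unmutated counterpart on the arrays, and PICALM in rescued cells may have been above its physiological amount, a caveat that the study states. All values are log2 expression levels after RMA, an Affymetrix normalization, so a difference of 1 is a doubling. Differences are rescued minus knockout within a line, and their mean and 95% interval over the 4 lines come from limma with the line as a block. The interval rests on a variance that limma draws partly from all probe sets. It can therefore be narrower than the 4 line differences alone would give, as for Lyz2, Mrc1 and Lgals3.

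Macrophages mature from monocytes, which arise in turn from myeloid progenitors of the kind that MLL fusions immortalize. They take up particles and dying cells through surface receptors, break them down in lysosomes, and secrete antibacterial proteins. The transcription factor PU.1, encoded by Spi1, and factors of the C/EBP family drive this programme, and signals through the receptor encoded by Csf1r sustain it. Neutrophils come from the same progenitors and share Lyz2 and other early myeloid genes with monocytes.

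Line 84 stood apart from the other lines before any comparison of the groups. Its knockout array had a mean of 9.84 on the log2 scale for 7 interferon response genes, against 5.27 to 5.41 on the other knockout arrays, and its rescued array had 6.84 against 5.30 to 5.41. Its mean over 8 mast cell and basophil genes was also higher, at 7.82 in knockout and 9.11 in rescued cells, against 6.05 to 6.24 and 6.25 to 7.20 in the other lines. Each marker gene is therefore given with and without this line. The median level over all probe sets was 7.32 to 7.35 on all 8 arrays.

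No marker gene passed the test between knockout and rescued cells. Lyz2, Mrc1 and Lgals3 were higher in the rescued cells of all 4 lines, by 1.37-fold, 1.25-fold and 1.18-fold on average, and no marker gene was lower in all 4. Called by limma at the false discovery rate of the methods (12.3%) were 0 of the 10 probe sets, beside 0.0796% of all probe sets. SAM paired by line, the test of the methods with the lines matched, called 0 of 10, beside 2.62% of all. The 3 probe sets that were higher in all 4 lines stand beside 12.0% of all probe sets, and the 0 that were lower in all 4 beside 11.8%. At an unadjusted limma p under 0.05 there were 3 of 10, the same 3 genes, beside 12.5% of all probe sets. Without line 84, limma called 0 of 10, and 4 probe sets had the same direction in the other 3 lines: these 3 genes, higher, and F13a1, lower. Agreement over 3 lines is easier to reach than over 4, and its share of all probe sets was not counted. The exact test over sign changes of 4 lines cannot give a p below 0.125 for a single probe set, so the test across all probe sets was used. In RNA from whole cultures, fewer cells of a type and less RNA per cell cannot be told apart.

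**Figure D1:**
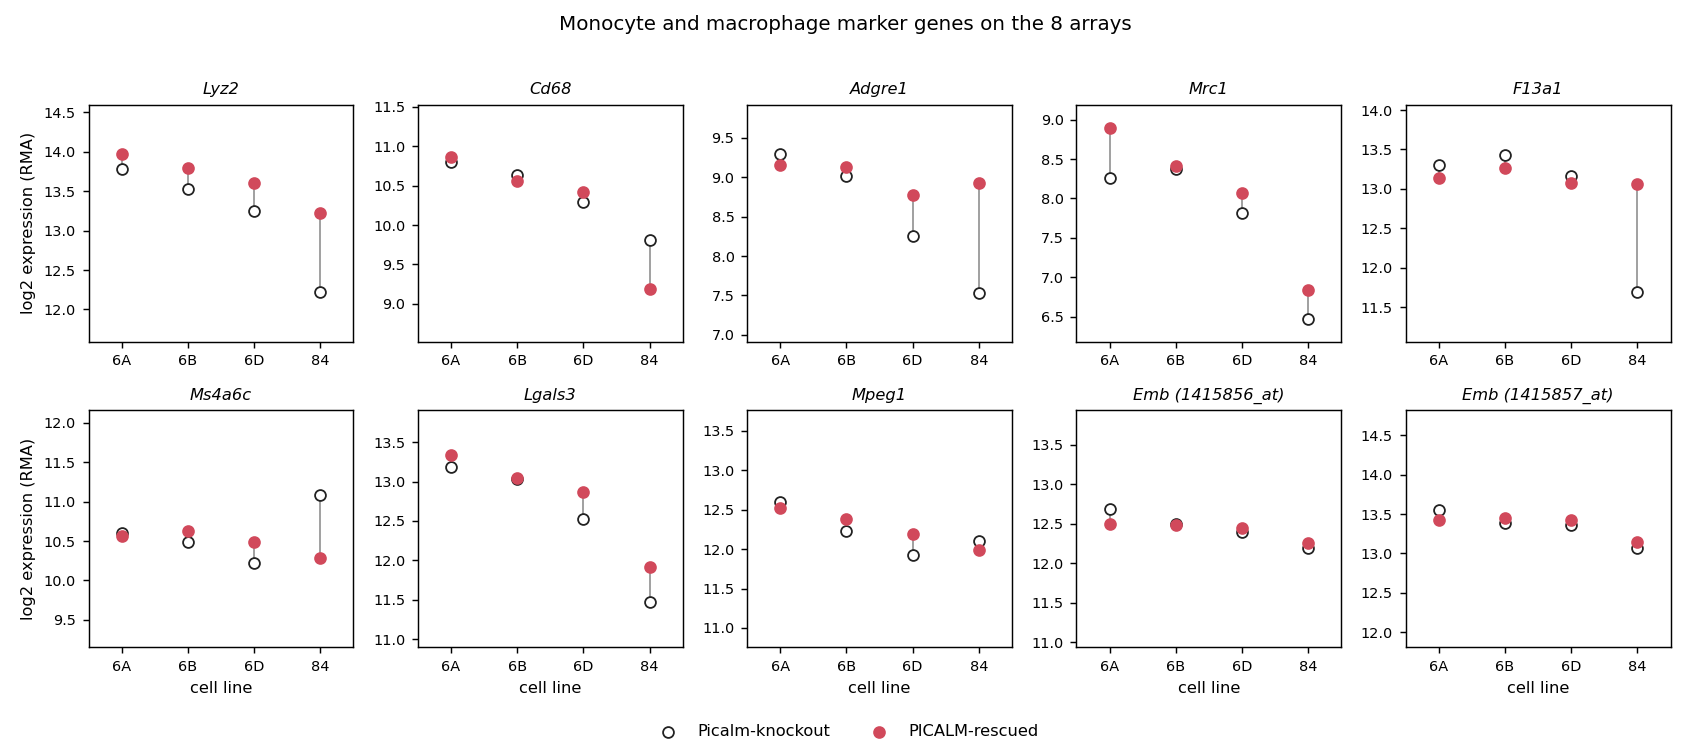
Log2 expression (vertical axes, each spanning 3 log2 units) of each probe set in knockout cells (open circles) and rescued cells (filled circles) of the 4 lines (horizontal axes), 1 array per circle. In 6 of 10 probe sets the knockout levels ran from line 6A, the highest, through 6B and 6D to 84, and the widest gap between the 2 circles of a line was in line 84 for Lyz2, Cd68, Adgre1, F13a1, Ms4a6c and Lgals3.

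The first group holds genes for secreted and lysosomal proteins. Lyz2 encodes lysozyme M, the antibacterial enzyme of monocytes, macrophages and neutrophils. Its log2 level (1423547_at) in lines 6A, 6B, 6D and 84 was 13.78, 13.53, 13.25 and 12.22 in knockout cells and 13.97, 13.80, 13.61 and 13.22 in rescued cells. The rescued array was the higher in every line, but the 2 groups overlapped, since the lines lay far apart (13.19 ± 0.68 in knockout and 13.65 ± 0.32 in rescued cells, mean ± SD, n = 4 each). The mean difference was 0.45 (95% interval 0.11 to 0.80, limma adjusted p = 0.342). Line 84 gave 1.002 of log2 difference and the other lines 0.19 to 0.36. Without line 84 the mean was 0.27, with an SD of 0.083 over 3 lines and an adjusted p of 0.234 in limma. Lyz1, its near-identical neighbour, which the probes may not fully separate, was higher in all 4 lines too, by 0.24 (adjusted p = 0.422), so the values of both genes are uncertain.

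Cd68 encodes macrosialin, a heavily glycosylated protein of late endosomes and lysosomes. On probe set 1449164_at its log2 level in lines 6A, 6B, 6D and 84 was 10.80, 10.63, 10.30 and 9.81 in knockout cells and 10.86, 10.56, 10.41 and 9.19 in rescued cells. Both groups ran in the same order of lines and overlapped almost fully. The differences were 0.06, -0.07, 0.12 and -0.63, with a mean of -0.13 (95% interval -0.45 to 0.19, adjusted p = 0.691 in limma). Line 84 set the sign of this mean, which was 0.034 without it.

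Mpeg1 encodes perforin-2, a pore-forming protein of phagocytes. It was at 12.59, 12.23, 11.92 and 12.10 in knockout cells, line by line from 6A through 6B and 6D to 84, and at 12.53, 12.38, 12.19 and 11.99 in the rescued cells (1427076_at). The rescued array was higher in lines 6B and 6D and lower in 6A and 84. Its mean difference was 0.06 (95% interval -0.13 to 0.25, limma adjusted p = 0.765), -0.0096 without line 6D and 0.12 without line 84.

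Lgals3 encodes galectin-3, a secreted lectin that binds beta-galactosides and is abundant in macrophages. In lines 6A, 6B, 6D and 84, its log2 levels were 13.18, 13.03, 12.53 and 11.47 in knockout cells, and the rescued cells had 13.33, 13.04, 12.86 and 11.92 (1426808_at). Every line had the higher value in its rescued cells, although in line 6B the difference was 0.0078. The mean difference was 0.24 (95% interval 0.034 to 0.44, adjusted p = 0.358 in limma), and 0.17 without line 84. The lines lay farther apart than the groups, with knockout arrays spanning 1.71 and rescued arrays 1.42.

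The second group holds genes for proteins of the cell surface. Adgre1 encodes an adhesion receptor widely used to mark mouse macrophages in flow cytometry. Its log2 level (1451161_a_at) in lines 6A, 6B, 6D and 84 was 9.30, 9.01, 8.26 and 7.53 in knockout cells, and 9.16, 9.13, 8.78 and 8.93 in the rescued cells. The knockout arrays spanned 1.77 and the rescued arrays 0.38. The differences were -0.14, 0.12, 0.52 and 1.40. Their mean was 0.47, a 1.39-fold difference (95% interval -0.14 to 1.09, limma adjusted p = 0.482), and 0.17 without line 84.

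Mrc1 encodes the macrophage mannose receptor, an endocytic receptor for glycoproteins with terminal mannose. Its log2 levels, in the same order of lines, were 8.26, 8.38, 7.82 and 6.47 in knockout cells and 8.90, 8.41, 8.06 and 6.84 in rescued cells (1450430_at). The differences were 0.64, 0.04, 0.24 and 0.37, so line 84 lay within the range of the others, as it did for no other marker probe set. Their mean was 0.32 (95% interval 0.075 to 0.57, adjusted p = 0.342 in limma), and 0.31 without line 84. Both arrays of line 84 were the lowest of their group by more than 1 log2 unit, so the groups overlapped widely.

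Ms4a6c belongs to the MS4A family of membrane-spanning proteins, several of which mark monocytes. It was at 10.60, 10.49, 10.23 and 11.09 in knockout cells (lines 6A, 6B, 6D, 84) and at 10.57, 10.63, 10.49 and 10.28 in the rescued cells (1450234_at). The knockout array of line 84 was the highest of all 8, whereas for 8 of the 10 marker probe sets it was the lowest knockout array. The mean difference was -0.11 (95% interval -0.55 to 0.33, adjusted p = 0.822 in limma). Line 84 gave -0.81, and the mean over the other lines was 0.12.

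Emb encodes embigin, a glycoprotein of the immunoglobulin superfamily that accompanies monocarboxylate transporters to the membrane. On probe set 1415856_at its log2 level was 12.69, 12.50, 12.39 and 12.19 in knockout cells (lines 6A, 6B, 6D, 84) and 12.49, 12.48, 12.44 and 12.26 in the rescued cells. On 1415857_at the values were 13.56, 13.39, 13.36 and 13.07 in knockout cells and 13.43, 13.44, 13.42 and 13.15 in rescued cells. The knockout array was the higher in line 6A and the rescued array in lines 6D and 84 on both probe sets, which disagreed in sign in line 6B. The mean differences were -0.02 (95% interval -0.17 to 0.12) and 0.02 (-0.12 to 0.15), with limma adjusted p of 0.894 and 0.920. These were the smallest mean differences of the 10 probe sets, and without line 84 they were -0.054 and -0.0056.

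F13a1 encodes the A subunit of coagulation factor XIII, the transglutaminase that cross-links fibrin, which monocytes and macrophages also make. Its level in lines 6A, 6B, 6D and 84 was 13.30, 13.44, 13.17 and 11.69 without PICALM, and the rescued cells had 13.14, 13.26, 13.07 and 13.06 (1448929_at). The rescued array was slightly lower in lines 6A, 6B and 6D, by 0.16, 0.17 and 0.10 on the log2 scale, and higher in line 84 by 1.36. The mean of 0.23 (95% interval -0.46 to 0.92, adjusted p = 0.748 in limma) was turned to -0.14 when line 84 was left out, with an SD of 0.040 over 3 lines (adjusted p = 0.308).

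**Figure D2:**
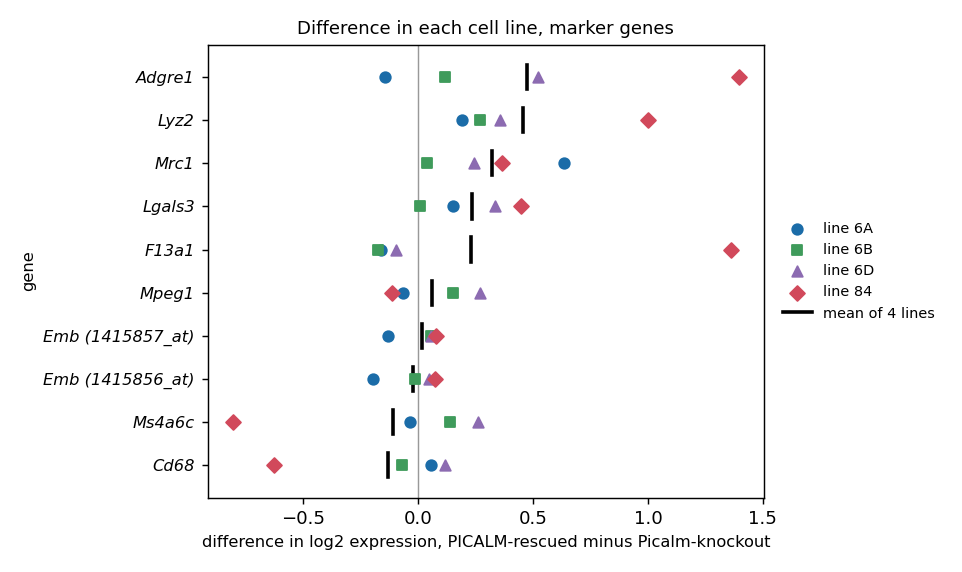
Rescued minus knockout log2 expression (horizontal axis) of each marker probe set (vertical axis) in the 4 lines (symbols), with the mean as a black bar. Lyz2, Mrc1 and Lgals3 lie to the right of 0 in all 4 lines, and line 84 lies outside the other lines in 9 of 10 probe sets.

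Across the marker genes, the lines differed in how many were higher with PICALM. The rescued array was the higher in 4 of 10 probe sets in line 6A, 7 in 6B, 9 in 6D and 7 in 84, where 52.3%, 49.9%, 49.0% and 46.9% of all probe sets were higher. The median difference over the 9 genes, with the brighter probe set of Emb, was -0.037, 0.056, 0.26 and 0.37 in these lines. Over the mean of the 4 lines it was 0.23, and 0.12 without line 84, beside 0.0061 and 0.012 over all genes. Line 84 lay outside the other lines in 9 of 10 probe sets, which 66.7% of all probe sets did. The interval of the mean held 0 for 7 of 10 probe sets, so that differences in either direction up to the bounds given above remain possible for these.

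The levels themselves followed the line more than the group. The mean over the 9 genes in lines 6A, 6B, 6D and 84 was 11.71, 11.57, 11.20 and 10.61 in knockout cells and 11.76, 11.63, 11.43 and 10.95 in rescued cells. The order 6A, 6B, 6D, 84 held for 6 of 10 probe sets in knockout cells and for 6 in rescued cells, beside 7.27% and 7.60% of all probe sets. The array of line 84 was the lowest knockout array in 8 and the lowest rescued array in 9 probe sets, beside 33.5% of all in each group. The knockout arrays spread more widely than the rescued arrays in 8 of 10, beside 62.7% of all.

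The RefSeq sequence before the transcription start (GRCm38.p6) was read for 8 of the 9 genes, 9 starts in all since F13a1 has 2. It is shown for the 3 genes that were higher in all 4 lines, 250 bases on the strand of the gene ending at the base before the start, and for Cd68, whose window held matches to all 3 motifs shown in capitals. Capitals mark a match, on either strand, to GAGGAA (the core bound by PU.1), TTGCNNAA (a C/EBP site) or TGANTCA (an AP-1 site). The windows are chr10:117282273-117282522 on the minus strand for Lyz2, chr2:14229164-14229413 on the plus strand for Mrc1, chr14:47373610-47373859 on the plus strand for Lgals3 and chr11:69666171-69666420 on the minus strand for Cd68.
Lyz2: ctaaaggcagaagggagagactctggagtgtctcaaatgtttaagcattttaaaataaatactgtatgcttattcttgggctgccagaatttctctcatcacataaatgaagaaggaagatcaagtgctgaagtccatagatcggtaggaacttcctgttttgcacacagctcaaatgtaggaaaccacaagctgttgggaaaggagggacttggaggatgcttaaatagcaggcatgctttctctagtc
Mrc1: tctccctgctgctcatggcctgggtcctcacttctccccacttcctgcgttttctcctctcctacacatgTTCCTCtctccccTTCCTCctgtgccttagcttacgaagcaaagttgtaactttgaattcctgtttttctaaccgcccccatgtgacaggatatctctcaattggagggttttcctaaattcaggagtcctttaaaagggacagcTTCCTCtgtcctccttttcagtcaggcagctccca
Lgals3: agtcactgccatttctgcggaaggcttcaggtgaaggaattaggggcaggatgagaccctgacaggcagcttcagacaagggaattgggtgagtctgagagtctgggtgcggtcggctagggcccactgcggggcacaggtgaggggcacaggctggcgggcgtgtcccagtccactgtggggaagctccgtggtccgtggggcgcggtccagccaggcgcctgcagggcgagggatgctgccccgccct
Cd68: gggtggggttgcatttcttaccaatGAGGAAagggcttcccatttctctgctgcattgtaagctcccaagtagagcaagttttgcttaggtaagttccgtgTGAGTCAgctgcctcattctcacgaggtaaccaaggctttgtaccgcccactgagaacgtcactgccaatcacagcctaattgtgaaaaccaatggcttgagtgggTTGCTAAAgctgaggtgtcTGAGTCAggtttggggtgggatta

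The PU.1 form GAGGAA was found before 3 of the 9 starts and in 23.3% of 32851 RefSeq promoters of this length. Mrc1 held 3 matches, beginning 180, 167 and 35 bases before the start, Cd68 held 1 at 225, and the start of F13a1 farther upstream held 1 at 66. Cd68 alone of the 9 starts held a C/EBP site, 43 bases before the start, and AP-1 sites, at 149 and 24, which 9.56% and 6.75% of all promoters hold. The E-box CANNTG, not in capitals, was found before 9 of 9 starts and in 66.2% of all promoters, and in Cd68 it overlapped an AP-1 site. Among the 3 genes that were higher in all lines, the windows of Lyz2 and Lgals3 held none of the 3 motifs in capitals. Other forms of these sites were not searched for. These are matches of letters in short windows and describe the sequence only.

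The other monocyte and macrophage genes were looked at through 3 lists of receptors, transcription factors, and lysosomal and effector genes, with 50 of 52 genes measured. Higher in all 4 lines were 11 (22%) and lower in all 4 were 5 (10%), beside 13.4% and 12% of all genes. Limma called 0 of the 50, beside 0.0796% of all probe sets, and SAM paired by line called 1, beside 2.62%. At an unadjusted p under 0.05 there were 11 of 50, beside 1619 of 12393 genes. Their median difference was -0.016, and 0.081 without line 84. The lists thus held genes on both sides.

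Among 19 receptor genes, 4 had the higher value with PICALM in every line and 3 the lower, beside 13.4% and 12% of all genes. Itgam, the integrin subunit CD11b of neutrophils and monocytes, which is among the genes the study listed from these arrays, was higher by 0.72 (95% interval 0.25 to 1.19, limma adjusted p = 0.323). Its level was 9.48, 9.50, 9.51 and 8.71 in knockout cells (lines 6A, 6B, 6D, 84) and 10.30, 9.96, 9.73 and 10.10 in the rescued cells. The study listed Itgam for its rise on these same arrays, so these values are not independent evidence of its direction. Csf2ra, a subunit of the GM-CSF receptor, and Fcgr3, a low-affinity IgG receptor, were higher by 0.59 and 0.46 with intervals that held 0, and Cd14, the lipopolysaccharide co-receptor, by 0.27 (0.045 to 0.49). Line 84 gave 1.60 for Csf2ra and 1.35 for Fcgr3, and the other lines 0.15 to 0.39 and 0.05 to 0.23. On the other side, Csf1r, the receptor for macrophage colony-stimulating factor, was lower by a mean of -0.18 (-0.31 to -0.045, adjusted p = 0.338 in limma). Its level was 12.16, 12.03, 11.63 and 11.41 in knockout cells and 11.87, 11.81, 11.50 and 11.34 in rescued cells. Cx3cr1, the fractalkine receptor of patrolling monocytes, had a mean of -0.49 (-0.96 to -0.030), with -1.21 in line 84. Fcgr1, the high-affinity IgG receptor, had a mean of -0.19 (-0.51 to 0.13). Differences in both directions thus occurred among these receptor genes, and Itgam is not particular to monocytes and macrophages.

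Among 9 transcription factor genes, 3 were higher with PICALM in every line and 0 lower, beside 13.4% and 12% of all genes. Klf4, a factor of monocyte differentiation, was higher by 0.25, 0.87, 1.02 and 2.64 in lines 6A, 6B, 6D and 84 (mean 1.19, 95% interval 0.27 to 2.12, limma adjusted p = 0.343). Spi1 was higher by 0.23 (0.088 to 0.37, limma adjusted p = 0.318), with differences of 0.32, 0.13, 0.14 and 0.34. Cebpb was higher by 0.22 (-0.082 to 0.51), with 0.68 in line 84 and 0.035 to 0.089 in the others. Irf8, a factor of monocyte and dendritic cell lineages, had a mean of -0.13 (-0.33 to 0.071).

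Among 22 lysosomal and effector genes, 4 had the higher value with PICALM in every line and 2 the lower, beside 13.4% and 12% of all genes. Ccl6, a chemokine of myeloid cells, had differences of 0.34, 0.35, 0.55 and 0.55 in lines 6A, 6B, 6D and 84. Its mean of 0.45 (95% interval 0.30 to 0.59) had an adjusted p of 0.178 in limma, above the threshold, and was called as higher by SAM paired by line. Tgfbi, a matrix protein read here by a probe set open to cross-hybridization, was higher by 0.82 (0.013 to 1.63), with 2.11 in line 84, and Aif1, a calcium-binding protein of macrophages, by 0.23 (0.088 to 0.37). Lgmn, a lysosomal protease, had a mean of -0.40 (-0.92 to 0.11), with -1.21 in line 84. The adjusted p of these 3 genes in limma was 0.318 to 0.477.

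Among 23 family relatives of the marker genes that were measured, 7 had the higher value in every line with PICALM and 2 the lower. Of all genes, 13.4% and 12% did so. Limma called 0 of the 23, beside 0.0796% of all probe sets, and SAM paired by line called 1, beside 2.62%. At an unadjusted limma p under 0.05 there were 7, beside 1619 of 12393 genes. They had a median difference of 0.024. Ms4a3, a gene of granulocyte and monocyte progenitors, was higher by 0.45 (95% interval 0.080 to 0.82), and Ms4a7 had a mean of -0.37 (-0.65 to -0.10). Ms4a2, the beta chain of the mast cell IgE receptor, was higher by 0.66 (-0.17 to 1.495), with 2.00 in line 84 and 0.05 to 0.49 in the others. Lgals3bp, which encodes a secreted protein that binds galectin-3, had a mean of -0.79 (-1.49 to -0.084) and was highest in the knockout cells of line 84, at 11.85 against 8.44 to 9.42 in the other lines. The limma adjusted p of these 4 genes was 0.336 to 0.470. The near relatives of Ms4a6c that follow were chosen for naming after their values were seen. In line 84, Ms4a4c and Ms4a6b had differences of -1.58 and -1.12 beside the -0.81 of Ms4a6c, whereas Ms4a6d had 0.45. In the other lines the same genes had 0.33 to 0.455, -0.12 to 0.25, -0.037 to 0.26, and 0.18 to 0.25. Ms4a6d, higher in all 4 lines by a mean of 0.28 (adjusted p = 0.297 in limma), was called by SAM paired by line. Its probe set and that of Ms4a4c are of kinds that can bind more than 1 transcript.

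**Figure D3:**
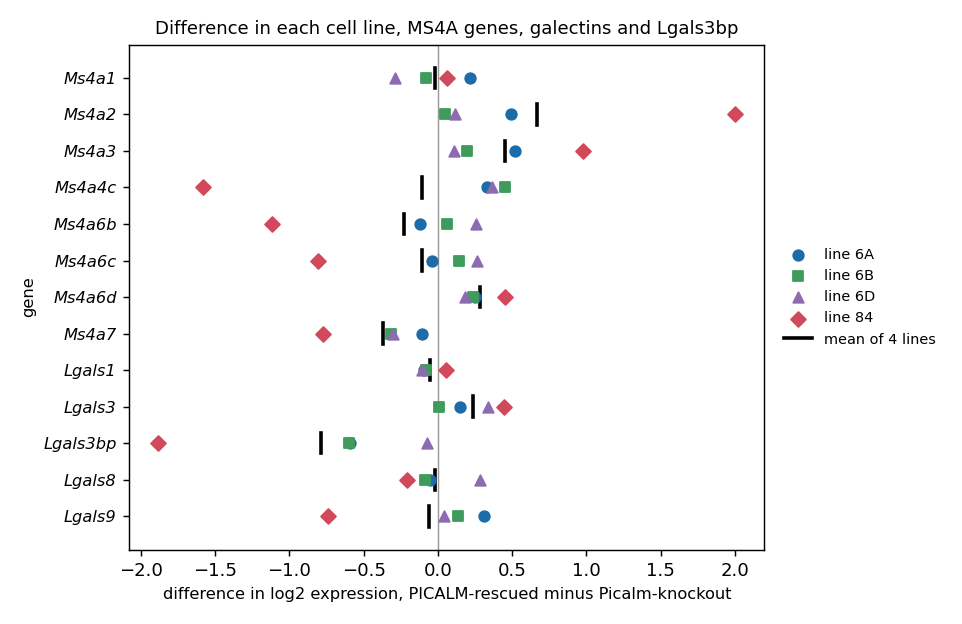
Rescued minus knockout log2 expression (horizontal axis) of the MS4A genes, the galectins and Lgals3bp (vertical axis) in the 4 lines (symbols), with the mean as a black bar. In line 84, Ms4a4c, Ms4a6b and Ms4a6c lie at -1.58, -1.12 and -0.81, while Ms4a6d and Lgals3 lie at 0.45.

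Genes of other cell types that the cultures could hold are given beside these values, and limma called 0 of them, beside 0.0796% of all probe sets. Of all genes, 13.4% were higher in all 4 lines and 12% were lower in all 4. Of 10 neutrophil granule genes, 9 were measured, and their mean level was 8.20 to 9.27 on knockout arrays and 9.72 to 10.97 on rescued arrays, with 6 genes higher in all 4 lines and a median difference of 1.53. Camp, a secondary granule protein, was higher by 2.33 and Ngp by 2.01, with limma adjusted p of 0.312 and 0.318, and SAM paired by line called Camp as higher. This list was written with genes in view that the study chose on these samples, so it is not independent evidence of its direction. The 4 promyelocyte genes, all measured, had means of 12.90 to 14.10 on knockout and 13.76 to 14.15 on rescued arrays, with Elane, neutrophil elastase, higher by 0.92 and Mpo, myeloperoxidase, by 0.12. The 8 mast cell and basophil genes had means of 6.05 to 7.82 and 6.25 to 9.11. Of these, 4 were higher in all 4 lines and 1 was lower in all 4, Tpsab1, with a mean of -0.094. Among the 4 was Cpa3, a mast cell protease, higher by 1.92 (limma adjusted p = 0.310), which SAM paired by line also called as higher. The part of these cell types in the values of Lyz2 and the other marker genes was not tested. The deposited values have no detection call and no 0, so that none of these markers can be called absent.

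Interferon response genes set line 84 apart. Their mean difference was -3.00 in line 84 and -0.0018 to 0.087 in the others, and Irf7, a factor of this response, was at 9.90 in its knockout cells against 6.79 to 6.98 in the other knockout lines. The marker genes with the lower value in the rescued cells of line 84 were Ms4a6c, Cd68 and Mpeg1, and the part of the interferon genes in this was not tested. The list of 8 stem and progenitor genes was also written with listed genes of the study in view. Lower in all 4 lines were 3 of them and higher 0, beside 12% and 13.4% of all genes. The median difference over this list was -0.25. Sox4 and Cd34, both genes of progenitors, had means of -1.32 and -1.25 (limma adjusted p = 0.150 and 0.261) and were called as lower by SAM paired by line.

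**Figure D4:**
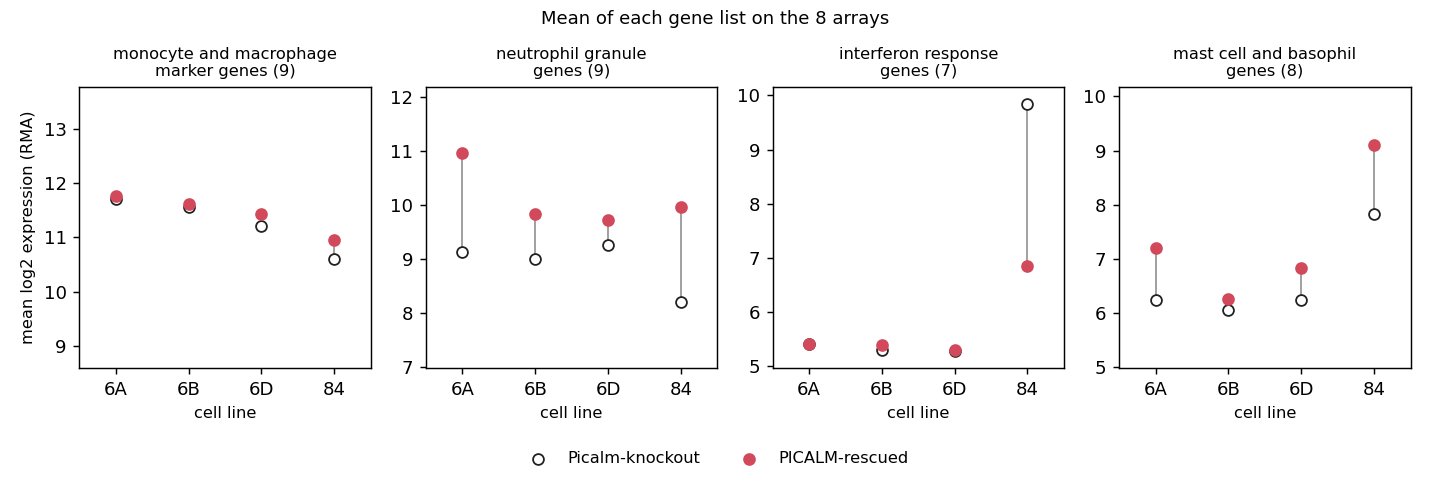
Mean log2 expression (vertical axes, each of the same span) over the genes of 4 lists on knockout arrays (open circles) and rescued arrays (filled circles) of the 4 lines (horizontal axes). The marker genes range from 10.61 to 11.76, and the interferon genes reach 9.84 on the knockout array of line 84. The neutrophil genes are at 8.20 to 9.27 on knockout and 9.72 to 10.97 on rescued arrays. Their list was written with genes in view that the study chose on these samples.

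The genes whose levels followed each marker gene most closely over the 8 arrays are given as a description, since arrays share lines and the spread between lines dominates. They were picked for the highest r among all genes that are not marker genes, so high values follow from the choice. The 6 arrays without line 84 were among those used to pick them, so they are no separate check. Lyz2 was followed by Lyz1 and Atp6v1b2, a subunit of the proton pump that acidifies lysosomes, both with a Pearson r of 0.995. Lgals3 was followed by Myo1f, a myosin of myeloid cells, at 0.990, Adgre1 by Pirb, an inhibitory receptor of myeloid cells, at 0.973, and Mrc1 by Slc6a6, the taurine transporter, at 0.994. Cd68 was followed by Zfp36, which encodes the RNA-binding protein tristetraprolin, at 0.996, and Mpeg1 by S100a4 at 0.966. Over the 6 arrays without line 84 these values were 0.961 to 0.986. The values for F13a1 with Nckipsd and Ms4a6c with Ak1 were 0.987 and 0.965 on 8 arrays, and 0.695 and 0.837 without line 84. Emb was followed by Nap1l5 at 0.992, and at 0.971 without line 84.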

How the data were processed

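Expression was measured on 8 Affymetrix mouse arrays from 4 cell lines, each with 1 knockout and 1 rescued array, which the labels treat as separate lines. The p-values of the blocked fit set a difference against its spread over the lines, with a variance drawn partly from all probe sets. The array is the A version by its titles, while the methods give the full version. RMA normalization was done by the authors, and the deposited table was read as log2 expression with nothing further applied. It had 22690 probe sets, 64 of them controls that were dropped, leaving 22626. A unique gene symbol was given for 20380, several for 691 and none for 1555, and 20351 symbols were found in a current gene table and 0 changed. The number of unmapped columns was 0.

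The 4 lines were compared in limma 3.58.1 (lmFit and eBayes, R 4.3.3), two-sided, with the line as a block. P-values were adjusted by Benjamini-Hochberg over the whole table and called at the 12.3% false discovery rate of the methods. The methods name SAM and no pairing. The pairing comes from the shared line: deviations from the group means of the 2 arrays of a line correlated at 0.623 to 0.811, and each knockout array correlated best with the rescued array of its own line. The SAM statistic was computed over all 70 arrangements, or all 16 sign changes when paired. The fit was run on simulated data with known shifts, only to check that it returned their size. The methods' t-test was run for comparison only. For a gene with several probe sets, the one with the highest mean represented it in medians and lists. Precision is limited by the number of arrays.

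The marker genes and all 18 gene lists were chosen with earlier results of these data known. Apart from the marker genes, the text names up to 4 genes of each monocyte, macrophage or family list with the largest mean difference and the same direction in all 4 lines, Csf1r, Cd14, Fcgr1, Itgam, Spi1 and Irf8, up to 2 genes of each list of another cell type by the same rule, and for each marker gene up to 2 genes with the highest correlation. Picalm was not analysed here, since no probe set carried that name in the annotation, so its level was no check of the labels.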

Additional observations from a re-analysis of the deposited data

Results flagged for a closer look

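Within groups of 4 lines, 4 values of the 10 marker probe sets lay far from the other 3 by Dixon's ratio, which chance exceeds in about 1 group in 20. F13a1 was at 11.69 in the knockout cells of line 84 and at 13.17 to 13.44 in the other knockout lines, and its difference in line 84 was 1.363 beside -0.10 to -0.17 in the others. The Emb probe set 1415857_at was at 13.15 in the rescued cells of line 84 beside 13.42 to 13.44 in the other rescued lines. Its difference in line 6A was -0.1306 beside 0.056 to 0.079 in the others. Over all probe sets, 15.6% had such a knockout level, 11.6% such a rescued level and 7.3% such a difference, where the marker genes had 1, 1 and 2 of 10.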

How the results depend on the processing

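No marker probe set was called under any alternative run: without the replicate block (0 called, lowest adjusted p 0.969), SAM paired or unpaired, the methods' t-test (0.971), a variance trend with robust settings (0.274), without the dimmest 40% of probe sets (0.243), quantile normalization (0.328), centring on the median (0.341), a threshold of 0.05, and without each line (0.234 to 0.681). Over all probe sets, limma called 1 as higher and 17 as lower with the block, 0 and 0 without it, 0 and 0 without line 6A, 6B or 6D, 8 and 42 without line 84, and 19 and 81 with the variance trend. SAM called 122 and 470 paired and 11 and 39 unpaired. Quantile normalization and centring kept the direction of all 10 marker probe sets. Leaving out a line turned the sign of 6 mean differences, which over the 4 such fits were -0.21 to 0.034 for Cd68, -0.14 to 0.37 for F13a1, -0.23 to 0.12 for Ms4a6c and -0.0056 to 0.064 for Emb on 1415857_at (each turned without line 84), -0.0096 to 0.12 for Mpeg1 (without 6D) and -0.054 to 0.035 for Emb on 1415856_at (without 6A). The number of probe sets with the same direction in every line, 3 with all lines, was 3 to 5 when a line was left out, with 5 without line 6A. Leaving out a line cannot lower this number, so a higher one is not a result by itself. The median over the 9 genes, 0.23, was 0.12 to 0.31, with the lowest value without line 84. The causes were not tested.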

Other observations

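In lists of further cell types and programmes, genes with the same direction in all 4 lines were counted beside 13.4% of all genes that were higher and 12% that were lower. Of 5 eosinophil genes measured, 1 was higher in all 4 lines, Prg3, which was at 9.32 in the rescued cells of line 84 and at 5.40 to 5.89 on the other 7 arrays. Of 7 megakaryocyte and platelet genes, 0 were higher and 1 was lower in all 4 lines, Pf4, with a mean difference of -0.40 and its highest level, 9.36, in the knockout cells of line 84. The 7 dendritic cell genes had 0 in either direction, and the 6 erythroid genes 1 higher (Gata1, 0.26). The 8 lymphoid genes had 3 higher (Nkg7 at 0.48 and Pax5 at 0.13 among them) and 0 lower. Pax5 was at 4.72 to 5.03 on all 8 arrays, below the median level of each array. The largest mean difference of the lymphoid list was a lower one, -0.71 for Cd79b. Its differences were -1.14, -1.03 and -0.73 in lines 6A, 6B and 84, and 0.054 in line 6D. The 6 stromal and endothelial genes had 0 in either direction, and the 4 hepatocyte genes 1 higher (Ttr, 0.079). Of 6 proliferation genes, 3 were higher in all 4 lines, with Mki67 at 0.28, and 1 was lower, Mcm2 at -0.11. Over the 13 lists of other cell types and programmes, with those of the report, limma called 0 of 85 genes, beside 0.0796% of all probe sets. Of the 85, 21 had an unadjusted limma p under 0.05, beside 1619 of 12393 genes. SAM paired by line called 3 as higher and 3 as lower, beside 2.62% of all probe sets. The 6 genes called by SAM were Camp, Lcn2, Cpa3, Cd34, Mycn and Sox4, and the neutrophil and progenitor lists among these were written with genes in view that the study chose on these samples. Lcn2, Mycn, Cd79b and Tpsab1 are named in the text after their values were seen.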
